A study of Homo sapiens with 3 samples.

Results

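Genes of protein processing in the endoplasmic reticulum (ER) were followed in 3 RNA sequencing libraries from cells labelled KG1, an established acute myeloid leukemia line. Members were the genes that the deposited annotation placed in the KEGG pathway of this name, with a gene symbol, outside the proteasome and outside 13 symbols treated separately (ATF4, DDIT3, NFE2L2, BCL2, BAX, BAK1 and cytosolic heat shock genes). Of 336 pathway genes, 46 had no symbol, and 277 members of 61806 genes in all remained. The control library, titled NC, came from cells with a vector control. The libraries titled shUCP2#2 and shUCP2#3 each hold a different lentiviral hairpin against UCP2, the gene of the mitochondrial uncoupling protein 2. Cells were selected as positive after transduction and grown in RPMI medium with fetal bovine serum. All libraries shared the line, the medium and the lentiviral system. The study's methods describe stable transfectants of each hairpin, sorted for GFP, so the spread behind the p-values joins differences between hairpins, between transfectants and between library preparations, which cannot be told apart. With 1 control library, the spread among controls is unknown.

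Secreted and membrane proteins enter the ER through the Sec61 channel, receive N-glycans from the oligosaccharyltransferase, and fold with the help of chaperones, lectins and disulfide isomerases. Folded proteins leave in COPII vesicles, whereas misfolded ones are handed to a membrane ubiquitin ligase, pulled into the cytosol and degraded, a route called ER-associated degradation. When misfolded proteins accumulate, the sensors IRE1 (gene ERN1), ATF6 and PERK (gene EIF2AK3) start the unfolded protein response. ATF6 and XBP1, the transcription factor made by IRE1 splicing, then induce chaperone and degradation genes.

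The promoters of 6 members are shown because they carry, or lack, the ER stress response element (ERSE, the boxes CCAAT and CCACG with 9 bases of any kind between them), the sequence to which ATF6 and XBP1 are known to bind with the factor NF-Y. HSPA5, HSP90B1 and CALR were lower in the libraries labelled shUCP2, CANX did not pass the test, and SEL1L and EDEM1 were higher. These 6 were chosen with the calls known, and no lower member without the element is shown. Only 3 of 19 lower members with a promoter held it, so the 6 do not show how the element relates to the calls. The sequences are the 250 bases before the RefSeq transcript start (GRCh38.p14), from 5′ to 3′ on the gene's strand, with the fixed letters of an exact ERSE match on either strand in capitals.
HSPA5 (chr9:125241344-125241593, minus strand): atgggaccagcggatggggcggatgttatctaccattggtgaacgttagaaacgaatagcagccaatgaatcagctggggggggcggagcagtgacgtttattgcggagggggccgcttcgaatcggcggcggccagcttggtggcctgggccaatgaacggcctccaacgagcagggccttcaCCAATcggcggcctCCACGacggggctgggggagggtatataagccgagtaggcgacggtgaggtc
HSP90B1 (chr12:103930160-103930409, plus strand): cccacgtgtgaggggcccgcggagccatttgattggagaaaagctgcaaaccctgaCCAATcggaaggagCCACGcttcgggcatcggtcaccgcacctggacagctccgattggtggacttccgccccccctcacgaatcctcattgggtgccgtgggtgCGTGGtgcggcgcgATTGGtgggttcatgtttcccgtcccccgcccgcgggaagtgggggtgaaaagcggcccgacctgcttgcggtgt
CALR (chr19:12938359-12938608, plus strand): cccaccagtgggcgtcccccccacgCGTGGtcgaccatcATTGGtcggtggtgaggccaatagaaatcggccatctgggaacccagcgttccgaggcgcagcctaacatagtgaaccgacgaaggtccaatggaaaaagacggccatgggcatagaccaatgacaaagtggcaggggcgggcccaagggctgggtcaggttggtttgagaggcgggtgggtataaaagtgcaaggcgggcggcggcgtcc
CANX (chr5:179698679-179698928, plus strand): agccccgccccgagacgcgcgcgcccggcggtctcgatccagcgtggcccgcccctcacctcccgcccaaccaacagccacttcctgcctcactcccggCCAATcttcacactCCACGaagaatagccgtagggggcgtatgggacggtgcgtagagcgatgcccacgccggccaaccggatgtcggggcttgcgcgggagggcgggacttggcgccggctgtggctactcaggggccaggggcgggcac
SEL1L (chr14:81533854-81534103, minus strand): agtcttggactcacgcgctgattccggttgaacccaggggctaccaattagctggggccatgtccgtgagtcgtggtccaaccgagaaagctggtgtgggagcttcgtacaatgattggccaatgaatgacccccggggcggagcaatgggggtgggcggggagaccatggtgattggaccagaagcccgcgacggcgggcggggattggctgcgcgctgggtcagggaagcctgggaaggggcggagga
EDEM1 (chr3:5187457-5187706, plus strand): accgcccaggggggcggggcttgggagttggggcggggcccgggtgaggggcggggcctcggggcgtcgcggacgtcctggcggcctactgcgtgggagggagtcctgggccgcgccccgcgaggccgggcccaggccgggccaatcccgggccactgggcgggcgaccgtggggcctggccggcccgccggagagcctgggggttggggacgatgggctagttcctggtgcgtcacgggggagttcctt
An exact ERSE on either strand stood in 0.0769% of all 35116 RefSeq promoter windows (250 before to 50 after the start). Of 277 members 165 matched a promoter by symbol, and 6 of them (3.64%) held the element: HSPA5, HSP90B1, CALR, CANX, XBP1 and ERO1B. By call, 3 of 19 promoters of lower members, 0 of 4 promoters of higher members and 3 of 118 promoters of tested members that were not called held it. The 3 lower ones were HSPA5, HSP90B1 and CALR, all long-known stress response genes in the target list below. Whether the element goes with the calls was not tested. HERPUD1 and HYOU1 held the related ERSE-II (ATTGG and CCACG with 1 base between them), found in 0.0541% of all promoters. The element UPRE (TGACGTGG), in 0.729% of all promoters, stood in 7 member promoters, among them that of VCP, and overlapped an ERSE-II in HYOU1. The amino acid response element CARE (TGATGCAA), in 0.866% of all promoters, stood in the promoter of HERPUD1 alone among members. These matches are descriptions of the letters in the window.

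The libraries held 18375090 counts in the control, 16475165 in shUCP2#2 and 17562153 in shUCP2#3. The target transcript was not lower: UCP2 had 651, 608 and 649 counts in this order of libraries, with edgeR giving 0.06 as log2 fold change (SE 0.15, adjusted p = 0.888). Directions below therefore compare libraries as labelled. KG1 is known as a CD34-positive progenitor-like line, and its defining markers were largely absent. Of 23 erythroid and megakaryocyte markers 16 were above 10 CPM (counts scaled to library size) in every library, against 5 of 18 progenitor and myeloid markers while none of 8 MHC class II genes reached it and 6 of these had no count at all. CD34 had 0, 10 and 0 counts and MPO had none. Lower shares were seen for monocyte and macrophage markers (1 of 12) and T, NK and B cell markers (1 of 10). Of 16 fibroblast and epithelial markers, 5 passed that level (FN1, KRT8, KRT18, KRT19 and EPCAM). Another 8 of the 15 tested were called higher, and for each of these most counts lay in shUCP2#2. The p-values rest on a spread shared by genes, so these calls rest largely on 1 library and do not describe both hairpins. Several fibroblast transcripts were far higher in shUCP2#2 than in the other libraries, with COL1A1 at 0, 507 and 0 counts and DCN at 5, 403 and 1 counts. Summed over the fibroblast and epithelial list, the level was 874 CPM in the control, 1044 CPM in shUCP2#2 and 781 CPM in shUCP2#3. Most of this sum came from FN1, KRT8, KRT18, KRT19 and EPCAM, so it understates the difference in the fibroblast transcripts.

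The members ranged from undetected to highly expressed. Of the 277, 55 had no count in any library and 180 passed the filter on low counts. The role lists covered 151 members, of which 136 were tested. The other 126 were 77 pseudogenes, of which 66 did not pass the filter, and 49 genes that the annotation put in the pathway although most have no known ER role. FPKM, the count scaled by exonic length and library total, averaged at least 1 for 164 members, at least 10 for 87 and at least 100 for 9. By mean FPKM the highest were CALR, which encodes the lectin chaperone calreticulin, followed by the oligosaccharyltransferase subunits RPN2 and DDOST. RPN2 had 157, 154 and 155 FPKM in the control, shUCP2#2 and shUCP2#3, and DDOST had 169.6, 145 and 150.0 FPKM. RPN2 and DDOST were close in level, and their order changed between the libraries.

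Called members were mostly lower in the libraries labelled shUCP2. The falls included 2 of 8 luminal chaperones and 4 of 9 genes listed under disulfide formation, and the 4 rises were SEL1L, ERN1, EDEM1 and SVIP. In total 23 of 180 tested members fell and 4 rose, while 153 did not pass the test (edgeR's quasi-likelihood test, Benjamini-Hochberg adjusted p under 0.05 over all genes). Over all 15232 tested genes 6.11% fell and 6.25% rose, so lower calls made up a larger share of the members (12.8%) and higher calls a smaller one (2.22%). In either direction the share was 15% of the members and 12.4% of all tested genes, which is near the background. The median log2 fold change was -0.09 over the members and 0.02 over all tested genes. High expression makes calls easier, and members were more abundant than other genes, with a median of 9.44 against 3.17 FPKM. Above a mean of 5 FPKM the shares were 16% lower and 3.05% higher for 131 members, against 10.8% and 12.1% for 6159 genes.

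The calls depended on how the spread was modelled, since the data hold 1 residual degree of freedom. DESeq2 called 11 members lower and 2 higher, where it called 1.17% of genes lower and 1.29% higher (2.46% in all). It gave no adjusted p for 16965 of 25001 genes, and among genes that had one it called 3.65% lower and 4.02% higher, against 7.19% and 1.31% of 153 members. Of the calls with an ER role, LMAN2, UGGT1, SSR1, SSR4, BAG1, PREB, NSFL1C, ATF6B, EIF2S1, ERN1 and SVIP did not pass under DESeq2, with adjusted p from 0.0821 to 0.291. With no filter 20 members fell and 4 rose, against 3.01% and 3.24% of genes (6.26% in all). Size factors of the DESeq2 type (6.09% of genes lower, 6.24% higher) and library totals alone (5.84% lower, 6.14% higher) each left 23 lower and 4 higher members. Without the abundance trend edgeR called 0 genes, with 1770 genes and 11 members at an unadjusted p under 0.05, and limma on log2(FPKM + 1) called 0, with 2310 genes and 32 members at that level.

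**Figure D1:**
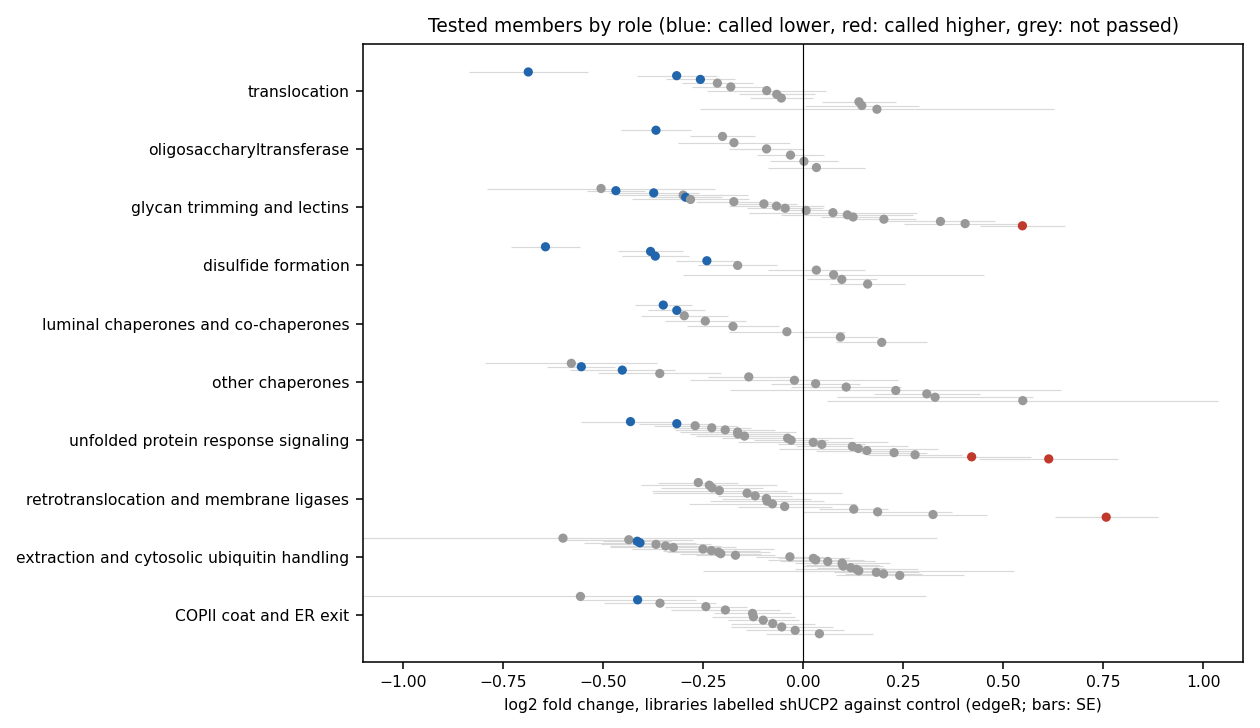
Log2 fold change (x axis, edgeR, bars are SE) of tested members with an ER role, 1 point per gene, grouped by role. Blue points were called lower and red points higher. DERL3 (-2.06) lies outside the axis range. The 20 blue points lie between -0.69 and -0.24 and the 4 red points between 0.42 and 0.76.

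Among the chaperones of the lumen, HSPA5 and HSP90B1 fell. HSPA5 (ENSG00000044574, chromosome 9, 125234853 to 125241382, minus strand, GRCh38), which encodes BiP, the main Hsp70 of the ER and the protein that holds the stress sensors inactive, had 171.57 FPKM in the control, 141 in shUCP2#2 and 129 in shUCP2#3. Both libraries labelled shUCP2 lay below the control, at 0.785 times its level (95% interval 0.712 to 0.865, log2 fold change -0.35, SE 0.07, adjusted p = 4.24e-05). HSP90B1, which encodes the ER Hsp90 paralog GRP94, went from 88.2 to 74.5 and 67.3 FPKM (log2 fold change -0.32, SE 0.07, adjusted p = 0.000262). Of the 8 luminal chaperones and co-chaperones these 2 fell, against 6.11% of all tested genes, and 6 did not pass the test. Among those, DNAJB11, a BiP cochaperone, had a log2 fold change of -0.30 (adjusted p = 0.0528). HYOU1, a large Hsp70 relative that exchanges the nucleotide of BiP, went the other way, with 24.4, 26.3 and 25.8 FPKM (log2 fold change 0.09, SE 0.09).

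Of 9 genes listed under disulfide formation, 4 fell, against 6.11% of all tested genes (10.8% above a mean of 5 FPKM). All 4 encode isomerases, which form and rearrange the disulfide bonds of folding proteins. The list also holds BCAP31, an ER membrane protein that is neither an isomerase nor an oxidase and did not pass the test (-0.16, SE 0.10). PDIA4 fell the most of these, from 88.7 FPKM in the control to 59.9 in shUCP2#2 and 53.7 in shUCP2#3 (fold 0.640, 95% interval 0.569 to 0.720, adjusted p = 2.05e-11). PDIA3, the isomerase that works with calnexin and calreticulin, went from 47.8 to 36.5 and 37.00 FPKM (log2 fold change -0.38, SE 0.08). PDIA6 went from 96.1 to 74.00 and 75.0 FPKM (-0.37, SE 0.08), and P4HB, protein disulfide isomerase itself, from 57.3 to 49.6 and 47.4 FPKM (-0.24, SE 0.08, adjusted p = 0.0229). The oxidases that recharge the isomerases did not pass the test, ERO1A with 22.4, 25.1 and 25.1 FPKM and ERO1B with 4.60, 4.77 and 4.65 FPKM. The isomerase TXNDC5 and the isomerase relative ERP29 lay slightly above the control in both libraries labelled shUCP2, with log2 fold changes of 0.08 and 0.10, and did not pass the test.

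**Figure D2:**
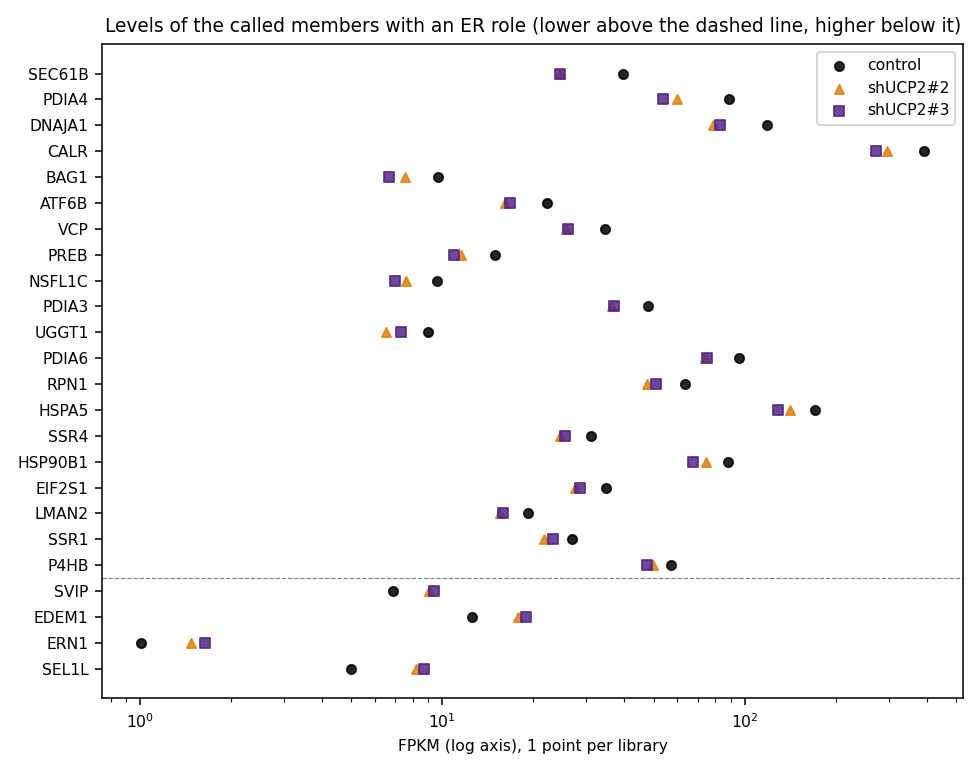
FPKM (x axis, log scale) of the 24 called members with an ER role in each library, 1 point per library. The control point lies to the right of both shUCP2 points for the 20 lower members and to the left of both for SVIP, EDEM1, ERN1 and SEL1L.

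In the lectin cycle, which retains glycoproteins until they are folded, the soluble and the membrane-bound lectin differed. CALR fell from 393 FPKM in the control to 296 in shUCP2#2 and 272 in shUCP2#3 (fold 0.723, 95% interval 0.656 to 0.797, adjusted p = 1.07e-08). CANX, which encodes its membrane-bound relative calnexin, had 104, 103 and 106 FPKM (log2 fold change 0.01, SE 0.07). The difference between CALR and CANX was not itself tested. UGGT1, which tags misfolded glycoproteins for another round, went from 8.96 to 6.52 and 7.33 FPKM (-0.37, SE 0.11). LMAN2, a lectin of the early secretory pathway, went from 19.3 to 15.5 and 15.9 FPKM (-0.29, SE 0.09). EDEM1, which trims mannose and so marks misfolded glycoproteins for degradation, rose from 12.5 FPKM to 17.8 and 18.9 FPKM (fold 1.46, 95% interval 1.26 to 1.69, adjusted p = 1.65e-05). Of 18 tested genes of glycan trimming and lectins, 3 fell, 1 rose and 14 did not pass. Those counts stand beside 6.11% lower and 6.25% higher over all tested genes. EDEM3, a relative of EDEM1, had a log2 fold change of 0.34 (adjusted p = 0.0814) and EDEM2 one of 0.07 (adjusted p = 0.897).

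At the entry to the ER, 3 of 11 tested translocation genes fell and 0 rose, against 6.11% lower and 6.25% higher over all tested genes. These translocation genes had a median of 25.3 FPKM, and above a mean of 5 FPKM 10.8% of genes fell and 12.1% rose. SEC61B, the beta subunit of the Sec61 channel, had the largest fall of all called members with an ER role, from 39.5 FPKM to 24.6 and 24.5 FPKM (fold 0.621, 95% interval 0.507 to 0.761, adjusted p = 0.000153). SEC61G, the gamma subunit, had 23.6, 27.9 and 24.5 FPKM and did not pass the test. SEC61A1, the alpha subunit, is not among the members. It had 10.1, 8.78 and 9.85 FPKM and did not pass either (-0.12, SE 0.10, adjusted p = 0.546). SSR4 (-0.32, SE 0.10) and SSR1 (-0.26, SE 0.09), subunits of the translocon-associated protein complex, fell as well. The gene of SSR4 overlaps IDH3G on the opposite strand, and the strand setting of the counting is not known, so their reads cannot be told apart. CKAP4, an ER membrane protein, had 0, 13 and 0 counts, all in the library with the high fibroblast transcripts. Of 7 oligosaccharyltransferase genes RPN1 fell, from 63.5 to 47.5 and 51.00 FPKM (-0.37, SE 0.09), and 6 did not pass. Of 12 genes of the COPII coat, PREB, which loads the coat GTPase SAR1, fell (-0.41, SE 0.15, adjusted p = 0.0401) and 11 did not pass.

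Few genes were called in the 2 lists for ER-associated degradation (retrotranslocation with membrane ligases, and extraction), at shares near those over all genes. EDEM1 and SVIP, which also rose and act on this route, are counted under glycan trimming and under signaling. SEL1L, the scaffold of the HRD1 ubiquitin ligase, rose from 4.98 FPKM in the control to 8.16 in shUCP2#2 and 8.70 in shUCP2#3 (fold 1.69, 95% interval 1.42 to 2.01, adjusted p = 3.25e-07). It was the largest rise among the called members. SYVN1, which encodes the ligase HRD1 that SEL1L holds, had 3.20, 2.84 and 3.23 FPKM (log2 fold change -0.08, SE 0.21). HERPUD1, another partner of the ligase, had 9.43, 12.2 and 11.5 FPKM, with both libraries labelled shUCP2 above the control, and did not pass the test (0.32, SE 0.14, adjusted p = 0.104). Of 15 tested retrotranslocation genes and membrane ligases 1 rose and 0 fell. Among 25 tested genes of extraction and ubiquitin handling 2 fell and 0 rose. These were VCP, the ATPase that pulls proteins out of the membrane, from 34.5 to 25.6 and 26.1 FPKM (-0.41, SE 0.08, adjusted p = 4.36e-05), and its cofactor NSFL1C (-0.41, SE 0.14). SVIP, an inhibitor of this extraction that binds VCP, rose from 6.89 to 9.04 and 9.42 FPKM (0.42, SE 0.15, adjusted p = 0.0382).

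Of the stress sensors ERN1 passed the test, and ATF6 and EIF2AK3 did not; differences between them were not tested. ERN1, which encodes IRE1, rose from 1.01 FPKM to 1.47 and 1.64 FPKM (fold 1.53, 95% interval 1.21 to 1.94, adjusted p = 0.00667). Its downstream factor XBP1 had 31.7, 33.4 and 32.1 FPKM (0.05, SE 0.11); gene counts do not separate the spliced from the unspliced transcript. ATF6 had 13.1, 12.6 and 13.1 FPKM (-0.03, SE 0.09), and EIF2AK3, the gene of PERK, had 1.38, 1.28 and 1.41 FPKM (-0.04, SE 0.16). ATF6B, a relative of ATF6, fell from 22.2 to 16.1 and 16.8 FPKM (-0.43, SE 0.12, adjusted p = 0.00713). EIF2S1, the translation factor subunit that PERK phosphorylates, fell as well (-0.32, SE 0.09, adjusted p = 0.011). PPP1R15A, the phosphatase subunit that reverses this phosphorylation, had 127, 158 and 141 FPKM and lay just outside the threshold (0.23, SE 0.08, adjusted p = 0.0502). Just inside it was the pseudogene HSP90AA2P (-0.75, adjusted p = 0.0446), whose reads can be shared with its parent gene. In the signaling list 2 of 19 tested genes rose, ERN1 and SVIP, and 2 fell, which is 10.5% each way. Over all tested genes the shares were 6.25% higher and 6.11% lower, and above a mean of 5 FPKM 12.1% and 10.8%. Under DESeq2 none of these 4 passed, with adjusted p of 0.188 for ERN1, 0.271 for SVIP, 0.116 for ATF6B and 0.0821 for EIF2S1.

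**Figure D3:**
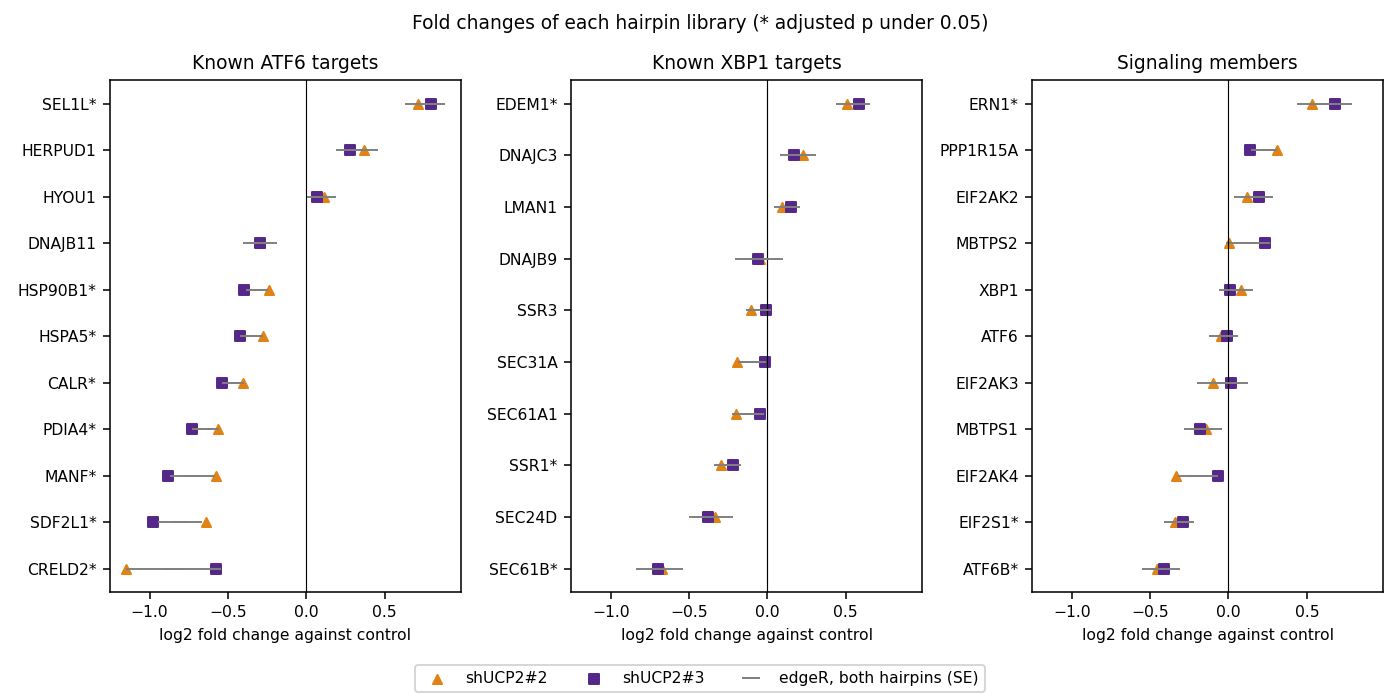
Log2 fold change against the control (x axis) of each hairpin library (triangles shUCP2#2, squares shUCP2#3) and of the edgeR fit with its SE (grey), for known ATF6 targets, known XBP1 targets and signaling members; asterisks mark an adjusted p under 0.05. Both hairpin points of 8 of the 11 ATF6 targets lie left of 0, and those of SEL1L, HERPUD1 and HYOU1 right of it.

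Lists of target genes divided by factor were examined next, and they include genes outside the pathway. Of 11 known ATF6 targets 7 fell, 1 (SEL1L) rose and 3 did not pass. Over all tested genes, 6.11% fell and 6.25% rose, and above a mean of 5 FPKM 10.8% fell and 12.1% rose. These targets had a median of 25.5 FPKM, against 3.17 FPKM over all tested genes. The target lists were chosen with earlier results of these data known. ATF6 and XBP1 bind a shared element, so these counts do not separate the factors. The median of the ATF6 targets was -0.35 on the log2 scale, against 0.02 over all tested genes, and -0.30 in shUCP2#2 and -0.42 in shUCP2#3. Besides HSPA5, HSP90B1, CALR and PDIA4, the falling targets were SDF2L1, MANF and CRELD2, which encode small stress-induced proteins of the lumen. SDF2L1 had 1090, 623 and 530 counts (-0.81, SE 0.14), MANF had 962, 575 and 500 counts (-0.73, SE 0.15), and CRELD2 had 189, 75 and 121 counts (-0.85, SE 0.30, adjusted p = 0.0455). In each of them both libraries labelled shUCP2 lay below the control. Of 10 known XBP1 targets 2 fell (SEC61B and SSR1), 1 rose (EDEM1) and 7 did not pass, with a median of -0.08. DNAJB9, a widely used readout of IRE1 and XBP1, had 637, 550 and 588 counts (-0.05, SE 0.16). Of 12 stress targets outside the pathway, 3 fell and 2 rose. The 3 that fell were SDF2L1, MANF and CRELD2, already counted among the ATF6 targets. The risers were TRIB3, a known target of ATF4 and CHOP, with 718, 1254 and 1315 counts (0.95, SE 0.13), and CREB3L2, a transcription factor of secretory cells (0.33, SE 0.12). Of 13 genes of the signal recognition particle and signal peptidase, SRP68 (-0.40, SE 0.11) and SPCS2 (-0.33, SE 0.10) fell and 11 did not pass.

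Cytosolic cochaperones in the pathway also held falls. DNAJA1, an Hsp40 of the cytosol, went from 119 to 78.9 and 82.7 FPKM (-0.55, SE 0.09, adjusted p = 1.15e-08), and BAG1, a nucleotide exchange factor of Hsp70, from 9.68 to 7.53 and 6.64 FPKM (-0.45, SE 0.13). The remaining 10 of 12 tested genes of this role did not pass. Among all tested genes 6.11% fell and 6.25% rose. DNAJA1 has several pseudogenes in the table and its reads can be split among them. HSP90B1 overlaps C12orf73, which had 292, 205 and 192 counts.

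In terms of the library as a whole, the members together held 2.31% of the control's gene counts, with an exact 95% interval from 2.30% to 2.31%. This share was 2.12% for shUCP2#2 (bounds 2.12% and 2.13%) and 2.13% for shUCP2#3 (bounds 2.12% and 2.14%). These intervals cover counting error only. HSPA5, HSP90B1, CALR, PDIA4, PDIA3, PDIA6 and P4HB, picked for this sum after their values were seen, took 0.526%, 0.421% and 0.393%. Luminal chaperones went from 0.289% to 0.249% and 0.231%. Most of this role's counts belonged to HSPA5 and HSP90B1, with 20586 and 21211 of 53170 in the control. In shUCP2#2 they had 15159 and 16059 of 40983 counts, and in shUCP2#3 14749 and 15483 of 40580. The other 6 genes of the role did not pass the test. By fold change HYOU1 and DNAJC3 lay above the control, and DNAJB11, DNAJC1, DNAJC10 and SIL1 below it. Retrotranslocation genes and membrane ligases stayed at 0.110% in every library. In bulk RNA, fewer cells of a type and less RNA per cell cannot be told apart. Erythroid markers were lower in the same libraries, with a summed level of 4866 CPM in the control, 3774 in shUCP2#2 and 3759 in shUCP2#3 and 9 of 20 tested markers lower and 1 higher. Their part in the falls of ER genes was not tested.

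**Figure D4:**
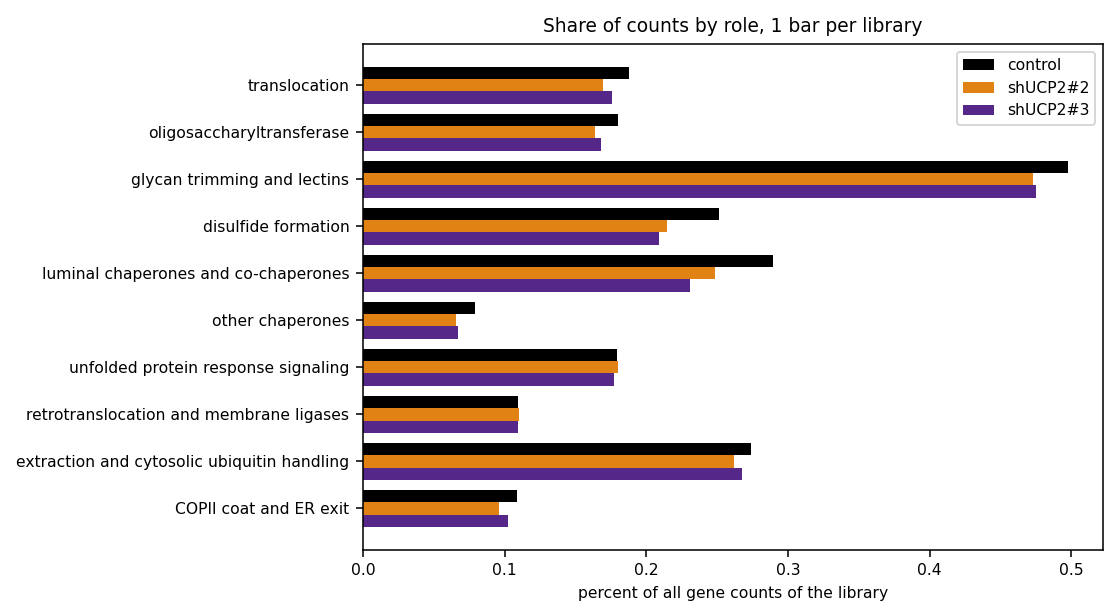
Share of all gene counts (x axis, percent) taken by the members of each role, 1 bar per library, without replicates or error bars. Luminal chaperones go from 0.289% in the control to 0.249% and 0.231%, while retrotranslocation genes and membrane ligases are at 0.110% in all 3 libraries. Most counts of the luminal chaperones belong to HSPA5 and HSP90B1.

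The hairpin libraries differed little in most members. The median absolute difference between their log2 fold changes was 0.10 over the 180 tested members and 0.18 over all tested genes. Above a mean of 5 FPKM these values were closer, at 0.08 and 0.09. These differences have no test, since each hairpin has 1 library. Differences of at least 0.5 were found in 10 members, most of them with low counts. Among members with a mean FPKM of at least 1, the pseudogene UBE2D3P1 differed most, with 35, 9 and 40 counts. JMJD8, an ER protein with 130, 67 and 113 counts, and TRAF2, the adaptor that links IRE1 to stress kinases, followed. TRAF2 had 379, 400 and 312 counts, with 1 hairpin library on each side of the control (0.24 and -0.22). HSP90AB3P (447, 439 and 357 counts), the stress-inducible Hsp70 gene HSPA6 (208, 264 and 219 counts) and CCM2 (192, 155 and 131 counts) completed the 6. HSPA5 (-0.28 and -0.42) and HSP90B1 (-0.24 and -0.40) were nearer the control in shUCP2#2, the library with the high fibroblast transcripts, than in shUCP2#3. The part of these transcripts in the fold changes was not tested.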

How the data were processed

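RNA of 1 control library and 2 libraries labelled shUCP2 was analysed. The authors deposited raw read counts per gene and FPKM; as computed from the files, FPKM is the count scaled by exonic size and total gene count, rounded. Tools listed in the submitters' processing notes are HTSeq 0.6.1, Cufflinks 2.2.1, DESeq2, SAMtools 0.1.19, cutadapt 1.9.1 and HISAT2 2.2.1, with the build GRCh38. Strand setting and annotation release: not given in the sources. The labels' extraction text describes DNA although the molecule is total RNA; values were treated as RNA.

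The test was that of edgeR 4.0.16 under R 4.3.3 (filterByExpr, TMM, quasi-likelihood F test, two-sided, Benjamini-Hochberg over all 15232 tested genes). SE came from the fold change and F. The fit had 1 residual degree of freedom and infinite prior degrees of freedom, so SE and p rest on the spread shared by genes at similar levels. Fold changes per hairpin used log CPM with a prior count of 2. The steps were tested on counts simulated with the spread estimated by this fit, a favorable setting. The test recovered 30.45% of genes changed 1.5 fold, 49.55% changed 2 fold and 72.42% changed 4 fold. Of its calls 5.25% were false. Genes that did not pass can therefore still differ. Alternatives were DESeq2 1.42.0, limma 3.58.1, other filters and scalings, and leaving out each shUCP2 library. Promoters came from RefSeq (GRCh38.p14), matched by symbol. The members and lists were chosen with earlier results of these data known. Named genes were UCP2; 16 core members; up to 4 called members per role by absolute fold change; the 3 members with the highest FPKM; the 6 whose hairpins differed most; and called genes of the signal recognition and target lists. Others were chosen after their values were seen. Figures used Python 3.11.15 and matplotlib 3.10.9. Some called members are not reported here by name.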

Additional observations from a re-analysis of the deposited data

How the results depend on the processing

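The number of called members depended on the variance model. Under DESeq2, 11 members were lower and 2 higher, all 13 of them among the 27 called by edgeR, and 69 of 222 members had no adjusted p. SEL1L and EDEM1 were the 2 higher ones, while ERN1 (DESeq2 adjusted p = 0.188) and SVIP (0.271) did not pass. Without the abundance trend edgeR called 0 members lower and 0 higher (11 at an unadjusted p under 0.05), and limma on log2(FPKM + 1) and on log2(FPKM + 0.1) also called 0 (32 and 33 at an unadjusted p under 0.05). Lower calls were 20 with no filter and 21 at a mean FPKM of at least 5, and higher calls 4 in both. At a mean FPKM of at least 5, P4HB (adjusted p = 0.0568) and PREB (0.0513) did not pass and PPP1R15A did (0.0457); with no filter PREB (0.0537), CRELD2 (0.115) and CREB3L2 (0.0573) did not. Size factors of the DESeq2 type and library totals alone left 23 lower and 4 higher, though CREB3L2 did not pass with totals alone (0.05001).

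The median log2 fold change of the members was -0.0599 with no filter, -0.0689 at a mean FPKM of at least 5, -0.0652 under DESeq2 and -0.0734 with limma on log2(FPKM + 1). It ran from -0.10 to -0.08 on leaving out 1 shUCP2 library. The median absolute difference between hairpins was 0.123 with no filter and 0.0805 at a mean FPKM of at least 5, settings chosen after seeing the data. None of the 47 named genes that were recomputed changed sign while called. UCP2 stayed between 0.05 and 0.08 and never passed. Leaving out 1 library leaves no residual degrees of freedom, so that setting gave fold changes and no counts of calls; the control could not be left out. No paired analysis was possible because 1 control library stands against both hairpin libraries. Depth limits members with few counts: a count of 0 allows up to 0.163, 0.182 and 0.171 CPM in the control, shUCP2#2 and shUCP2#3.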

Other observations

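The median exonic size was 8145 bases (5201 to 19153) for the 4 higher members with an ER role, 5538.5 bases for the 20 lower ones and 5437.5 bases for the 112 that did not pass. Over all genes it was 7131.5 bases for the 952 higher and 4667 bases for the 931 lower ones. Differences in size between these groups were not tested, and the part of gene length in the fold changes was not tested either. Of the 27 called members 20 overlap at least 1 other gene of the table in their span.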
